A study of Homo sapiens with 4 samples.

Results

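The 3 GADD45 genes, the gene for a GADD45-binding mitochondrial protein and 5 kinases of the p38 stress pathway were followed in pancreatic cancer cells treated with cannabichromene (CBC), a non-psychotropic cannabinoid of hemp. These 9 genes, GADD45A, GADD45B, GADD45G, GADD45GIP1, MAP3K4, MAP3K5, MAP2K3, MAP2K6 and MAPK14, were taken by symbol, and all 9 were found among the 58233 Ensembl genes counted. Polyadenylated RNA was sequenced from 4 libraries, 1 per condition, of the established human lines MIA PaCa-2 and PANC-1, which are labelled wild type and were collected 24 h after treatment. MIA PaCa-2 cells received 35 μM CBC, PANC-1 cells received 30 μM CBC, and the control of each line is labelled PBS. The study's methods call the control a vehicle control and give acetonitrile as the solvent of CBC, so whether the control libraries received the solvent is not settled by these sources. The dose also differed between the lines. No label says which clone or passage of a line was used, and no condition has a second culture.

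GADD45A, GADD45B and GADD45G encode small acidic nuclear proteins whose transcripts are induced by DNA damage, growth arrest and other stresses. They bind and activate the MAP3 kinase MTK1, the product of MAP3K4. In this cascade a MAP3 kinase phosphorylates a MAP2 kinase (MKK3 from MAP2K3, MKK6 from MAP2K6), which phosphorylates p38 alpha from MAPK14. ASK1, the product of MAP3K5, is a second MAP3 kinase upstream of p38 and JNK that is held inactive by thioredoxin and released under oxidative stress. ATF4 and CHOP, transcription factors of the integrated stress response, act on GADD45 genes.

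The libraries held 21742775 to 27903667 counts on genes, and a limit of 3 counts, which a count of 0 allows, was 0.11 to 0.135 CPM, a unit in which counts are set against library sizes scaled by the trimmed mean of M-values (TMM). The keratins KRT8, KRT18 and KRT19 were abundant in all 4 libraries, whereas the epithelial markers EPCAM and CDH1 had at most 1 count in MIA PaCa-2 cells. Of 16 markers of leukocytes, endothelium, fibroblasts, acinar and endocrine cells, 10 had no count in any library, and their summed level ranged from 1.62 CPM in CBC-treated MIA PaCa-2 cells to 135 CPM in the PANC-1 control, where COL1A1 had 3037 counts. The summed level of 6 epithelial markers, carried by the keratins KRT8, KRT18 and KRT19, was lower after CBC treatment, at 2553 against 3476 CPM in MIA PaCa-2 and 1206 against 2045 CPM in PANC-1 cells, with 0 of 6 called by edgeR, 3 at an unadjusted p under 0.05 and 2 called by DESeq2. The low-count markers CDH1, with 32 and 131 counts in PANC-1, and KRT7, with 2 and 52 counts in MIA PaCa-2, were higher after CBC treatment. The mesenchymal marker VIM was abundant in all libraries, and none of 3 mesenchymal markers was called by edgeR or DESeq2, with 1 higher at an unadjusted p under 0.05. CD14, a monocyte marker at 123 and 18 counts in MIA PaCa-2 and 32 and 2 in PANC-1, was called lower over both lines. The part of these markers in the values of the members was not tested. In bulk RNA, fewer cells expressing a gene and less RNA per cell cannot be told apart.

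The promoters of GADD45B and GADD45G are shown because CBC-treated cells held more RNA of both genes in each line and the letters before their starts share elements in a similar arrangement. RefSeq windows (GRCh38.p14) were at hand for 8 of the 9 genes, and the promoter of GADD45A was not analysed here. Each sequence is the 250 bases before the RefSeq start on the plus strand, chr19:2475877-2476126 for GADD45B and chr9:89604762-89605011 for GADD45G. Capitals mark a CACGTG hexamer, which is an E-box, each CCAAT box, and a TATA box read as the letters TATAA.
GADD45B: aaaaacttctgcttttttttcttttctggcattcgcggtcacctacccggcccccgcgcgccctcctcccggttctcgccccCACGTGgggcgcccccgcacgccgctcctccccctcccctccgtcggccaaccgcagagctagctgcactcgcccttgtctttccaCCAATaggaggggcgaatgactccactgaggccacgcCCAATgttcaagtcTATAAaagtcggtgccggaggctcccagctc
GADD45G: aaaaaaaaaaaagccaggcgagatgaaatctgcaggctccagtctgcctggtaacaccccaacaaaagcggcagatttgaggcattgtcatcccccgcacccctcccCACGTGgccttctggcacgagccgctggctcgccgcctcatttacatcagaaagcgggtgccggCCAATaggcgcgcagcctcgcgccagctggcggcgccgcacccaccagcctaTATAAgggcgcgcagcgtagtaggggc

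In both windows an E-box was followed by a CCAAT box and a TATA box. The E-box began 168 bases before the start of GADD45B and 143 bases before that of GADD45G. The first CCAAT box began at 82 and 79 bases, and GADD45B had another at 45 bases. The TATA box began at 31 and 27 bases. On both strands of 35116 windows of this length, CACGTG was present in 6.34%, CCAAT in 32% and TATAA in 18.9%, and all 3 were present in 0.268%. These 3 elements were chosen after the sequences had been read. Among the other members with a window, none held CACGTG. The element TGATGNAA, which ATF and C/EBP factors can bind, was found on the minus strand of GADD45G at 102 bases and in 3.14% of all windows. An AP-1 element (TGANTCA) was found only before MAP2K3 among the members, and in 6.57% of all windows, and the GC box GGGCGG, in 42.6% of all windows, was in neither printed sequence. A match of letters describes the window and does not show that a factor binds there.

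Of the 9 genes, GADD45A and GADD45B rose with CBC treatment over both lines, GADD45A with the larger fold change in each. GADD45A (ENSG00000116717, chromosome 1 of GRCh38, 67685201 to 67688334) had 821 counts in PBS-treated and 12585 in CBC-treated MIA PaCa-2 cells, and 787 and 3504 counts in PANC-1 cells. In CPM, MIA PaCa-2 cells went from 36.9 to 509 and PANC-1 cells from 34.6 to 128. The controls of the lines lay close together, and each CBC library lay above both controls. MIA PaCa-2 cells thus held 13.8-fold more GADD45A RNA (log2 fold change 3.78, 95% counting interval 3.68 to 3.89). PANC-1 cells held 3.70-fold more (log2 fold change 1.89, interval 1.78 to 2.003). Among all tested genes GADD45A ranked 91st from the top in MIA PaCa-2 and 231st in PANC-1 cells.
The log2 fold change of PANC-1 cells was smaller by 1.89, with a 95% counting error of 0.15, and this order between the lines was not tested across cultures.

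GADD45B (ENSG00000099860, chromosome 19, 2476122 to 2478259) encodes the family member known for its induction by TGF-beta and NF-kB. It had 360 and 1330 counts in MIA PaCa-2 and 1031 and 2375 counts in PANC-1, control first. The CBC library was the higher one of each line, but the PANC-1 control, at 45.3 CPM, was close to the CBC-treated MIA PaCa-2 cells, at 53.8 CPM. The log2 fold change was 1.73 (1.56 to 1.90) in MIA PaCa-2 and 0.94 (0.83 to 1.05) in PANC-1 cells, just under the threshold of 1 that the study's methods use for differentially expressed genes (DEGs). With library totals in place of TMM the PANC-1 value was 1.01, past the threshold. GADD45G (ENSG00000130222, chromosome 9, 89605012 to 89606555), the third family member, was almost unread in the controls. It had 4 and 116 counts in MIA PaCa-2 and 16 and 43 counts in PANC-1 cells. For MIA PaCa-2 cells the log2 fold change was 4.19, and its counting interval was wide (3.31 to 6.604). From the deposited CPM with a pseudocount of 1 it was 2.27. For PANC-1 cells it was 1.075 (0.30 to 2.09). In PANC-1 cells GADD45G therefore passed the threshold by a margin smaller than its counting error, and with a prior count of 5 it was 0.97.

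**Figure D1:**
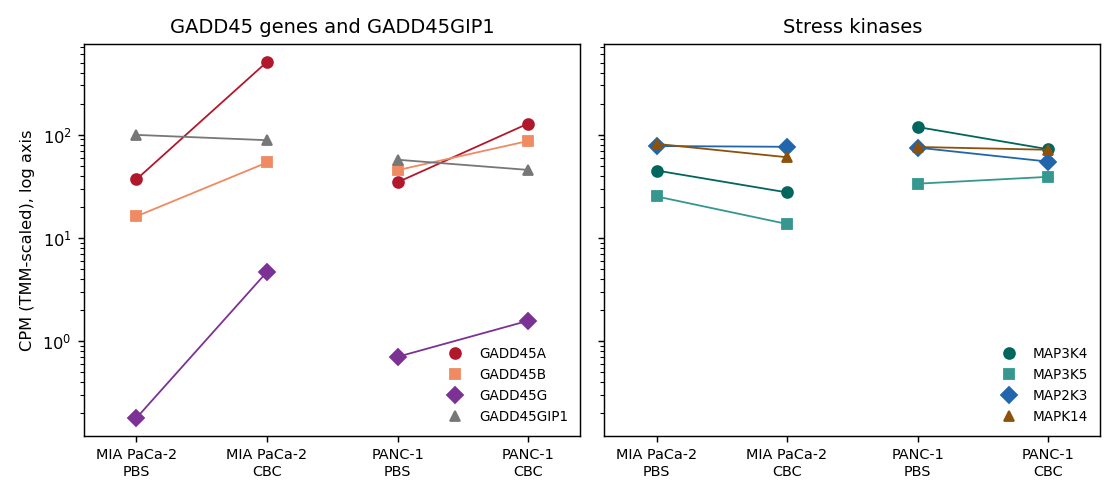
TMM-scaled CPM on a log axis in each of the 4 libraries (1 point per library, lines join the PBS and CBC libraries of a line) for the GADD45 genes and GADD45GIP1 (left) and for 4 stress kinases (right). GADD45A goes from 36.9 to 509 CPM in MIA PaCa-2 and from 34.6 to 128 CPM in PANC-1, while the kinases stay between 13.6 and 119 CPM.

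Taken per length (CPM per kb of merged exons, GENCODE 44), the 3 GADD45 genes together had a level of 26.9 in the control and 293 after CBC treatment in MIA PaCa-2, and of 39.7 and 108.5 in PANC-1. GADD45A made up 71.3% of this level in the MIA PaCa-2 control and 90.2% after CBC treatment. In PANC-1 cells its share was 45.3% in the control, below the 53.4% of GADD45B, and 61.4% after CBC treatment, above the 37.5% of GADD45B. GADD45G made up at most 1.34% in any library. The leading family member of PANC-1 cells was thus GADD45B without CBC and GADD45A with it, whereas GADD45A led in both MIA PaCa-2 libraries.

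**Figure D2:**
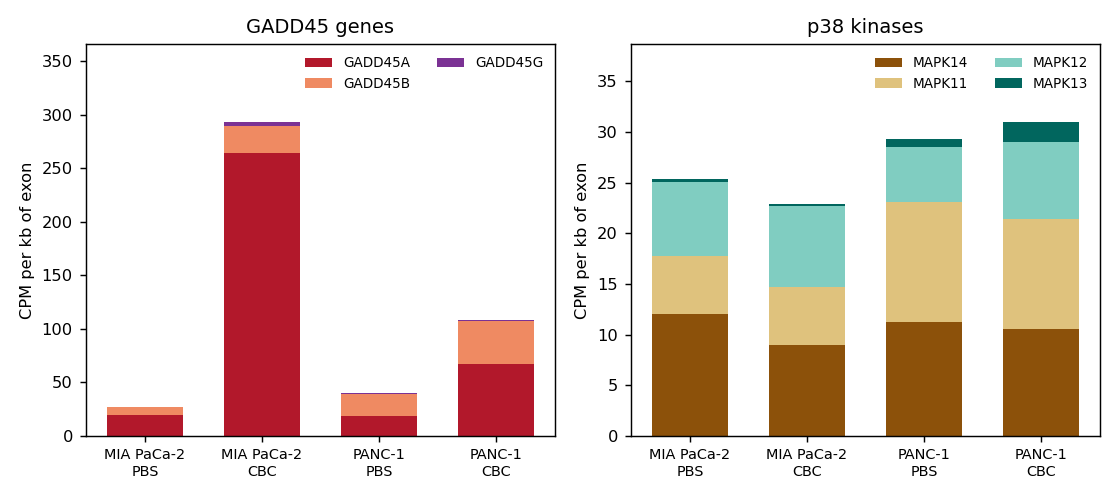
Stacked bars of the level per length (CPM per kb of merged exons, axis from 0) of the GADD45 genes (left) and of the p38 kinases (right) in each library. The GADD45 sum goes from 26.9 to 293 in MIA PaCa-2 and from 39.7 to 108.5 in PANC-1, and the p38 sum stays between 22.9 and 31.0.

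None of the 4 kinase members with enough counts, MAP3K4, MAP3K5, MAP2K3 and MAPK14, was more than 2-fold higher or lower after CBC treatment in either line. MAP3K4 (ENSG00000085511, chromosome 6, 160991727 to 161117385), the direct kinase partner of GADD45 proteins, had 1000 and 682 counts in MIA PaCa-2 and 2699 and 1974 counts in PANC-1, control first. It was lower after CBC treatment in both lines and by nearly the same amount, with log2 fold changes of -0.70 (-0.85 to -0.56) and -0.72 (-0.80 to -0.63). The antisense gene MAP3K4-AS1 shares 357 exon bases with it and had 41, 40, 189 and 89 counts in the same order, and since how the counting used strand is not given in the sources used here, its part in the value was not tested.

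MAP3K5 (ENSG00000197442, chromosome 6, 136557046 to 136793097), which encodes ASK1, had 561 and 337 counts in MIA PaCa-2 and 762 and 1067 counts in PANC-1 cells. CBC-treated cells were thus lower than the control in MIA PaCa-2 and higher in PANC-1. The log2 fold changes were -0.88 (-1.09 to -0.69) and 0.22 (0.09 to 0.36), both short of the threshold. The counting intervals lay on opposite sides of 0, and the difference between the lines, 1.10 with a 95% counting error of 0.24, was not tested across cultures. Of the ASK paralogs, MAP3K6 had 766 and 550 counts in MIA PaCa-2 and 765 and 850 counts in PANC-1 cells, and per length it was read as much as or more than MAP3K5 in all but the CBC-treated PANC-1 cells.

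MAP2K3 (ENSG00000034152, chromosome 17, 21284672 to 21315232) was at nearly the same level in 3 of the 4 libraries, 77.6 and 76.3 CPM in MIA PaCa-2 and 74.9 CPM in the PANC-1 control, and at 54.8 CPM in CBC-treated PANC-1 cells. Its log2 fold change was -0.02 (-0.12 to 0.07) in MIA PaCa-2 cells, where the sign turned with other scalings (from -0.04 to 0.04), and -0.45 (-0.55 to -0.35) in PANC-1 cells. MAP2K6 (ENSG00000108984, chromosome 17, 69414697 to 69553865) was almost silent, with 7 and 0 counts in MIA PaCa-2 and 4 and 1 counts in PANC-1 cells. At this depth it stayed below 1 CPM in every library and entered no comparison across genes. For 7 against 0 counts in MIA PaCa-2 cells, the upper end of the 95% counting interval of the log2 fold change was -0.68. Of the MAP2 kinases dedicated to p38, MAP2K3 therefore made up at least 99.9% of the level per length in every library. The exact share depends on the merged exon lengths, 16660 bases for MAP2K6 and 3775 for MAP2K3. By counts MAP2K3 had 1726 and 1888 in MIA PaCa-2 and 1704 and 1498 in PANC-1 cells.

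MAPK14 (ENSG00000112062, chromosome 6, 36027782 to 36111236) had 1813 and 1495 counts in MIA PaCa-2 and 1729 and 1952 counts in PANC-1 cells. Its log2 fold change was -0.43 (-0.53 to -0.33) in MIA PaCa-2 and -0.09 (-0.18 to 0.00) in PANC-1 cells. Per length, the p38 kinases together were at 25.4 and 22.9 CPM per kb in MIA PaCa-2 and at 29.3 and 31.0 in PANC-1 cells. MAPK14 had the largest share of this sum in both MIA PaCa-2 libraries, 47.5% in the control and 39.1% after CBC treatment. MAPK12 took 35.1% in the CBC library, and by counts it exceeded MAPK14 in that library, with 1849 against 1495. For the PANC-1 control, MAPK11, which encodes p38 beta, took 40.3% and MAPK14 took 38.4%. By counts MAPK11 was below MAPK14 in that control, with 721 against 1729. These shares depend on the merged exon lengths, 6755 bases for MAPK14, 9315 for MAPK12 and 2688 for MAPK11.

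GADD45GIP1 (ENSG00000179271, chromosome 19, 12953119 to 12957223) carries the family name through its binding to GADD45 proteins, but its product is a subunit of the mitochondrial ribosome. It had 2214 and 2187 counts in MIA PaCa-2 and 1300 and 1245 counts in PANC-1 cells. The log2 fold changes were -0.17 (-0.26 to -0.09) and -0.33 (-0.44 to -0.21), beside medians of -0.17 and -0.22 for the 51 other genes of the large mitochondrial ribosomal subunit. None of those 51 genes was a higher DEG in either line and 1, MRPL42, was a lower DEG in MIA PaCa-2 cells. Over both lines edgeR called 0 of the 51, with 5 lower at an unadjusted p under 0.05, and DESeq2 called 0.

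**Figure D3:**
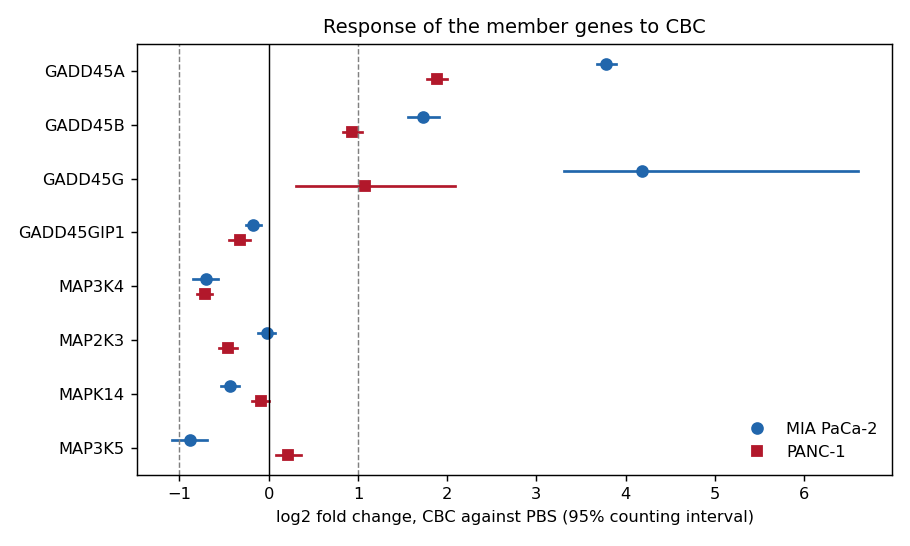
Log2 fold change of CBC against PBS in MIA PaCa-2 (circles) and PANC-1 cells (squares) for the 8 members with at least 1 CPM in 1 library of the line, with bars for the 95% counting interval of the 2 counts and dashed lines at -1 and 1. The 3 GADD45 genes lie above 0 in both lines, MAP3K4 lies near -0.7 in both, and MAP3K5 lies at -0.88 and 0.22.

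Counted over the members, the MIA PaCa-2 line had 3 higher DEGs among 8 tested members (GADD45A, GADD45B and GADD45G), against 11.5% higher and 8.97% lower among all genes tested. The PANC-1 line had 2 higher DEGs among 8 (GADD45A and GADD45G), against 7.71% higher and 7.03% lower. No member was a lower DEG in either line. The whole counting interval lay past a 2-fold increase for all 3 genes in MIA PaCa-2 and for GADD45A alone in PANC-1 cells. The median log2 fold change of the 8 members was -0.10 in MIA PaCa-2 and 0.07 in PANC-1 cells, beside -0.01 and 0.02 for all tested genes. Members above 0 were the 3 GADD45 genes, joined by MAP3K5 in PANC-1 cells alone. GADD45G reached the minimum of 1 CPM in each line through its CBC library alone. It had 0.18 and 4.69 CPM in MIA PaCa-2 and 0.70 and 1.57 CPM in PANC-1, control first. Its entry thus depended on its rise. With a minimum of 5 CPM GADD45G was not tested. Higher DEGs were then 2 of 7 members in MIA PaCa-2 and 1 of 7 in PANC-1. Among all genes they were 995 of 11094 and 633 of 11409.

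With 1 library per condition nothing can be tested within a line, so the lines were joined in 1 fit (edgeR's quasi-likelihood test) that blocks on the cell line and leaves 1 residual degree of freedom. The test draws the spread of each gene toward that of the other genes. A low p-value therefore does not show that the 2 lines agreed closely for that gene. Of 8 members tested, 2 were called higher and 0 lower at a Benjamini-Hochberg adjusted p under 0.05. Among all 16381 genes, 2.26% were called higher and 2.45% lower. At an unadjusted p under 0.05, 3 members were higher and 1 lower, and 3428 of all genes passed in either direction. DESeq2 called 2 members higher and 1 lower, and 579 of all genes higher and 717 lower. The same totals over all genes stand behind the counts of the lists over both lines. GADD45A rose by a log2 fold change of 2.85 (standard error 0.44, adjusted p = 0.0172 in edgeR's quasi-likelihood test), and the CBC library was the higher one in both lines. GADD45A was called in 5 of 6 alternatives, with adjusted p from 9.49e-28 to 1 in edgeR or DESeq2, the highest without the block. GADD45B rose by 1.34 (standard error 0.27, adjusted p = 0.0369 in edgeR), also in both lines. This call was a narrow one. It was lost with DESeq2 size factors (adjusted p = 0.0525 in edgeR) and with the version 4 form of the edgeR test (adjusted p = 0.0512), and its adjusted p ranged from 4.31e-05 to 1 over 6 alternatives, the highest without the block.
GADD45G did not pass, with a log2 fold change of 2.696, a standard error of 0.87 and an adjusted p of 0.131 in edgeR. MAP3K4 had -0.70 (standard error 0.21, adjusted p = 0.113 in edgeR) and was lower in both lines. The adjusted p of MAP3K5, MAP2K3, MAPK14 and GADD45GIP1 lay between 0.555 and 0.624 in the same edgeR test.

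The lines also differed without CBC. In PBS, 7 members passed the CPM minimum, and 2 were more than 2-fold higher in PANC-1 cells, while 24% of all genes tested were higher and 18% lower by that threshold. These were GADD45B, with a log2 difference of 1.48 (1.31 to 1.66), and MAP3K4, with 1.40 (1.30 to 1.51). GADD45A differed by -0.09 (-0.24 to 0.05), so its controls were within counting error of each other. GADD45GIP1 was lower in PANC-1 cells, with -0.80 (-0.90 to -0.70), and MAP3K5 was higher by 0.41 (0.25 to 0.57). MAP2K3 and MAPK14 differed by -0.05 (-0.15 to 0.05) and -0.10 (-0.20 to 0.00).
In the line term of the same fit over both treatments, 3 members were called higher in PANC-1 cells and 1 lower, while 25.1% of all genes were called higher and 21.7% lower. The share of members called was therefore near that of all genes. MAP3K4 was higher by 1.34 (standard error 0.22, adjusted p = 0.00197 in edgeR) and GADD45B by 1.02 (standard error 0.27, adjusted p = 0.0167 in edgeR). GADD45GIP1 was lower, with a log2 difference of -0.94 (standard error 0.21, adjusted p = 0.00884 in edgeR).
MAP3K5 was called at 0.90 (standard error 0.32, adjusted p = 0.0499 in edgeR), a call that was kept in 1 of 6 alternatives, with adjusted p from 0.00586 to 0.167. GADD45A was not called, with -1.11 (standard error 0.42, adjusted p = 0.0602 in edgeR), but 2 of 6 alternatives called it lower in PANC-1, library totals (adjusted p = 0.047) and no filter (adjusted p = 5.17e-05), and the highest adjusted p was 0.31. Its levels in order were 509 CPM in CBC-treated MIA PaCa-2 cells, 128 CPM in CBC-treated PANC-1 cells, and 36.9 and 34.6 CPM in the controls, which did not differ beyond counting error.

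The genes whose levels over the 4 libraries lay nearest to GADD45A, by Euclidean distance of centred log2 CPM, were PPP1R15A (also named GADD34, a phosphatase subunit for eIF2 alpha), WIPI1, HERPUD1, CEBPB and GABARAPL1. Their distances were 0.454 to 0.808. For PPP1R15A the log2 fold change was 3.98 in MIA PaCa-2 and 2.22 in PANC-1, and GABARAPL1, the farthest of the 5, had 3.02 and 1.72. HERPUD1 acts in degradation at the endoplasmic reticulum, and WIPI1 and GABARAPL1 act in autophagy. For GADD45B the nearest genes were SEL1L3, CDCP1, TGFB1I1, CALCOCO1 and TESK1, at distances of 0.175 to 0.241. With 4 libraries such likeness is a description only. No likeness was computed for MAP2K6, whose counts are too few.

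Genes around the GADD45 proteins were read from lists, each given without the 9 members. The DEG counts of every list within a line stand beside the shares over all tested genes. These were 11.5% higher and 8.97% lower in MIA PaCa-2 and 7.71% higher and 7.03% lower in PANC-1 cells. Of 16 transcription factors known to act on GADD45 promoters, 8 were higher DEGs in MIA PaCa-2 and 3 in PANC-1 cells, and none was a lower DEG in either line. Their median log2 fold changes were 0.82 and 0.30. Over both lines, 3 of the 16 were called higher and 0 lower by edgeR, with 8 and 2 at an unadjusted p under 0.05, and 4 and 2 were called by DESeq2. ATF3 rose by a log2 fold change of 4.60, DDIT3 (CHOP) by 3.74 and ATF4 by 1.27, with adjusted p of 0.00449, 0.00597 and 0.0229 in edgeR. EGR1 had 701 and 7116 counts in MIA PaCa-2 cells but 158 and 258 counts in PANC-1 cells, and it was not called (adjusted p = 0.126 in edgeR).

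Of 8 other protein partners of GADD45, 4 were called lower and 0 higher in the same edgeR test, with 4 and 1 at an unadjusted p under 0.05 and 4 and 1 by DESeq2. The 4 were PCNA, the sliding clamp of DNA replication, CDK1 and CCNB1, the kinase and cyclin of mitotic entry that GADD45A can inhibit, and AURKA, a mitotic kinase. PCNA fell by 2.01 on the log2 scale, with 6400 and 2220 counts in MIA PaCa-2 and 4857 and 1134 counts in PANC-1 cells. CDKN1A, which encodes p21, had 30 and 933 counts in MIA PaCa-2 and 1007 and 1955 counts in PANC-1 cells. It was not called by edgeR (adjusted p = 0.154) and was the partner that DESeq2 called higher. The list had 1 higher and 2 lower DEGs in MIA PaCa-2, 0 higher and 4 lower in PANC-1, and medians of -0.49 and -0.91. Among 18 tested checkpoint genes of the DNA damage response, CLSPN and TOPBP1, which promote activation of the kinase ATR and its target CHK1, were called lower and none was called higher in edgeR, with 7 lower and 0 higher at an unadjusted p under 0.05 and 5 lower and 0 higher by DESeq2. That list had 2 lower DEGs in MIA PaCa-2, 4 in PANC-1 and no higher one, with medians of -0.48 and -0.53.

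The other genes of the stress kinase cascade were centred near 0. Of 16 other MAP3 kinases, 1 was a higher DEG in each line (MAP3K15 in MIA PaCa-2, MAP3K10 in PANC-1) and none a lower one, with medians of -0.03 and 0.08. The other p38 and JNK kinases had medians of 0.01 and 0.12, and MAPK9 (JNK2), with 2065 and 957 counts in MIA PaCa-2 cells, was the lower DEG among them there. MAPK13 (p38 delta), with 120 and 368 counts, was the higher DEG among them in PANC-1 cells. MAP2K4 and MAP2K7, the MAP2 kinases of JNK, were within 1 log2 unit in both lines. Over both lines edgeR called none of these 23 kinases at an adjusted p under 0.05, 2 had an unadjusted p under 0.05, and DESeq2 called 1, MAP3K10. Downstream of p38, MAPKAPK3 and MKNK2, kinases that p38 activates, were called higher by edgeR among 17 tested substrates, with log2 fold changes of 1.16 and 1.10. At an unadjusted p under 0.05, 5 substrates were higher and 1 lower, and DESeq2 called 5 higher and 0 lower, with MAX, MEF2D and ZFP36 beside these kinases. The substrates had 2 higher DEGs and 1 lower in MIA PaCa-2 and 2 higher and 0 lower in PANC-1, with medians of 0.15 and 0.20. DUSP8, a phosphatase that inactivates p38 and JNK, was called higher by edgeR among 8 tested phosphatases, with 70 and 584 counts in MIA PaCa-2 and 80 and 300 counts in PANC-1. At an unadjusted p under 0.05, 3 phosphatases were higher and 0 lower, and DESeq2 called 3 higher (DUSP1, DUSP16 and DUSP8) and 0 lower. In MIA PaCa-2, 3 of 7 tested were higher DEGs and 0 lower. In PANC-1, 1 of 8 was a higher and 1 a lower DEG, and the medians were 0.85 and 0.38 in the lines. Of 16 regulators that bind ASK1, YWHAQ, a 14-3-3 protein, was called lower with a log2 fold change of -0.93 (3 were lower and 0 higher at an unadjusted p under 0.05 in edgeR, and DESeq2 called 2 lower and 0 higher). The thioredoxin gene TXN2 was at -0.55 and -0.40 in the lines and was not called.

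**Figure D4:**
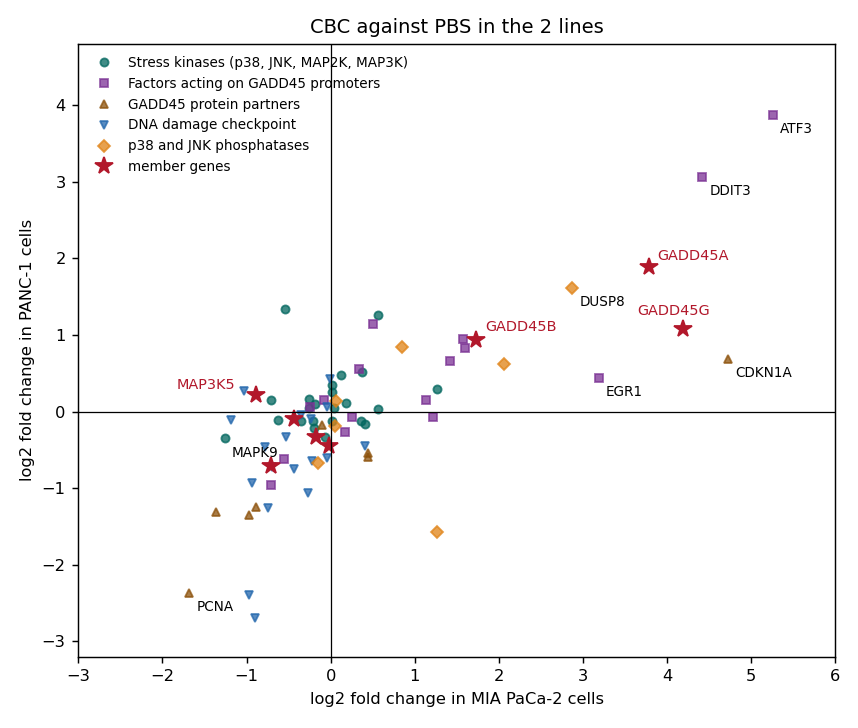
Log2 fold change of CBC against PBS in MIA PaCa-2 cells (x axis) and PANC-1 cells (y axis) for genes tested in both lines, with 1 point per gene, colours and shapes for the lists and stars for the member genes. GADD45A lies at 3.78 and 1.89, beyond most list genes and below ATF3 and DDIT3, while the stress kinases gather around 0.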

How the data were processed

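RNA of 4 libraries was selected for poly(A) and prepared with a directional kit. Adapters were removed by the authors with cutadapt 2.7, STAR placed the paired-end reads on GRCh38, and raw counts per Ensembl gene from HTSeq were deposited; the mode and strand setting of HTSeq are not given in the sources used here. A normalized signal, CPM with TMM scaling, was deposited for every library too, and it differed from the same values computed here by at most 6.84e-09 in relative terms. Counts were used for all results.

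Of 58233 identifiers, 57392 matched a symbol, and positions and lengths came from GENCODE 44 on GRCh38. Log2 fold changes within a line came from R 4.3.3 with edgeR 4.0.16 at a prior count of 2 and TMM factors of all 4 libraries. A gene was tested where either library of the line reached 1 CPM and was called past 1 in either direction. Counting intervals are exact binomial 95% intervals (for a difference between lines, a normal approximation) and, like the limit of 3 counts, cover counting error only. They are therefore no measure of the spread between cultures.

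CBC against PBS was tested over both lines, and PANC-1 against MIA PaCa-2 over both treatments, with edgeR's quasi-likelihood test (the form before version 4) on 16381 genes with Benjamini-Hochberg adjustment. Libraries were paired by cell line, and deviations of paired libraries from their treatment means correlated at 0.923. Each line has 1 culture per condition, so the only replication behind the p-values for CBC is the response of 2 lines. Most of the error estimate of a gene is borrowed from the other genes by the moderation in edgeR, not taken from its own 2 lines. In the line term the line is the tested effect, and the 2 treatments stand as its replicates. Its p-values rest, with the same borrowing, on the spread of the line difference between treatments, not between cultures. The test was first run on simulated data. The alternatives were other scalings, prior counts and filters, the deposited CPM, DESeq2 1.42.0, no block and the version 4 test, the last chosen after seeing the data, as was the call on counting intervals.

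The members and the lists were chosen with earlier results of these data known. All members are named, and of each list up to 3 genes with the largest mean change at a mean of at least 10 CPM, the paralogs of the members and the 5 genes with the nearest pattern to GADD45A and GADD45B. CCNB1, AURKA, ATF4, MAP3K4-AS1, CD14, EPCAM, CDH1, KRT7, MAX and MEF2D were named after their values were seen. Promoter windows are from RefSeq. Some items that bear on the members are not reported here.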

Additional observations from a re-analysis of the deposited data

Results flagged for a closer look

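MAP3K5, which encodes the kinase ASK1, was lower after CBC treatment in MIA PaCa-2 cells and higher in PANC-1 cells, so that its log2 fold change was greater by 1.10 in PANC-1 cells. The 95% counting intervals of the lines lay on opposite sides of 0. The difference was not tested, because each line had 1 library per condition. Neither line's change passed 2-fold.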

How the results depend on the processing

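The number of members called moved with some settings. In PANC-1 cells it was 1 in place of 2 with a prior count of 5, with a minimum of 5 CPM, with the deposited CPM and a pseudocount of 1, and with the counting interval wholly past 2-fold. In each of these GADD45A was kept and GADD45G was lost, with log2 fold changes of 0.97 for the prior count of 5 and 0.60 for the deposited CPM (2.27 in MIA PaCa-2 cells). With library totals GADD45B passed the threshold there, at 1.01. Over both lines, 1 member in place of 2 was called with DESeq2 size factors in edgeR and with the version 4 test, and 0 without the block for the cell line, where 354 of all genes had an unadjusted p under 0.05 and DESeq2 with the block called 1296 genes. For the line term no replicate block gave 0 members in place of 4. The numbers of members in MIA PaCa-2 cells and in PBS stayed within 1.5 times under the alternatives run. Over all genes, no filter gave 5816 calls in place of 2864 in MIA PaCa-2 cells, 4847 in place of 2078 in PANC-1 cells, 10878 in place of 6207 in PBS and 2063 in place of 771 over both lines. A minimum of 5 CPM gave 1848 and 1297 in the lines, and the interval past 2-fold gave 1719 and 1187. The line term had 4251 calls in place of 7652 without the block. With no filter GADD45G was called over both lines (adjusted p = 0.000723 in edgeR, highest alternative 1.0), and with DESeq2 MAP3K4 was (adjusted p = 0.032, highest alternative 1.0). In the line term MAPK14 turned to -0.060 with library totals and -0.0023 with no replicate block, and GADD45G turned to 0.031 with DESeq2, all uncalled. Library totals shift every gene by -0.13 in the comparison of the controls. The causes of these moves were not tested. The depth limits GADD45G and MAP2K6, and 1 library per condition limits every comparison within a line.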

Other observations

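Among the other stress kinases, 3 genes were picked out after their values were seen. MAPK13, which encodes p38 delta, had 44 and 33 counts in MIA PaCa-2 cells and 120 and 368 counts in PANC-1 cells, and its share of the p38 level per length in PANC-1 cells was 2.56% without and 6.18% with CBC. MAP3K10, a mixed lineage kinase upstream of JNK, had 584 and 963 counts in MIA PaCa-2 cells and 6942 and 19921 counts in PANC-1 cells, with an adjusted p of 0.0588 for CBC over both lines in edgeR. MAP3K15, an ASK paralog, had 18 and 51 counts in MIA PaCa-2 cells and 138 and 204 counts in PANC-1 cells.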
